A study of Mus musculus with 16 samples.

Results

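The lumbar spinal cord of wild-type mice was compared between 80 and 40 days of age across all genes of a whole mouse genome array. The samples were those labelled wild-type, 8 of the 16 arrays of the series, with 4 arrays at 80 days and 4 at 40 days. These mice, labelled NonTg, carried no transgene, had the B6SJL background and served as age-matched controls of mice transgenic for SOD1G93A, a mutant form of human superoxide dismutase; the other 8 arrays were from the SOD1G93A mice, 4 at each age. Per the study's methods the mice were male, and 4 arrays of each group were kept after quality control. Cord RNA was labelled with Cy3 and hybridised together with a Cy5-labelled pool of RNA from neonatal heart, liver and kidney, which was the same on every array. Values are log2 ratios of the Cy3 to the Cy5 signal, so a difference of 1 between the ages is a doubling or a halving of this ratio. An offset of 50 was added to both signals before the ratio was taken. On the wild-type arrays the median Cy3 signal was 50.5 to 57, with a median background of 35 to 38. The offset makes differences and folds of dim genes smaller than those of their signal. Ratios are compared only within a gene, never between genes.

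From 40 to 80 days the mouse passes from adolescence to young adulthood. In the cord, oligodendrocytes wrap axons with myelin, a membrane built mostly of cholesterol, galactolipids and a few abundant proteins, and most of its cholesterol is made within the nervous system, since lipoproteins of the blood do not enter it. Sterol synthesis runs from acetyl-CoA over mevalonate, isoprenoids and squalene to lanosterol and cholesterol, and its enzymes share the transcription factor SREBP2. Microglia and astrocytes supply complement, and neurons refine their receptors and peptides in the same weeks.

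Between 46.1% and 55.3% of the probes were well above background on a wild-type array. The lowest share was that of replicate 4 at 40 days, and the next lowest was 50.6%. Of the wild-type arrays, this array also had the most outlier spots (301). Its median correlation with the arrays of its group was the lowest (0.978, against 0.982 to 0.989 on the others). Replicate i of each of the 4 groups lay on slide i, and each group had its own position on the slide, so age cannot be told apart from position. The markers of astrocytes (Gfap, Aqp4), oligodendrocytes (Mbp, Mog), microglia (Cx3cr1, P2ry12), neurons (Snap25, Rbfox3), lumbar level (Hoxc10, Hoxd10) and cholinergic neurons (Slc18a3, Slc5a7) were above background on all 8 arrays, while Chat was so on 1. The array of replicate 4 at 40 days was lowest in meningeal (-0.99) and peripheral myelin genes (-0.78), replicate 1 at 80 days was highest in skeletal muscle (0.93) and meningeal genes (0.57), and replicate 3 at 80 days was highest in microglial (0.40) and glucocorticoid-responsive genes (0.42), each as the list's median difference from the mean of the 8 arrays (log2). The labels call the 4 arrays of a group biological replicates without naming the animals. In whole cord, fewer cells of a type and less RNA per cell cannot be told apart.

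Transcripts of 13 sterol synthesis genes, 7 fatty acid and sphingolipid genes and 6 myelin genes fell between 40 and 80 days, and fewer genes rose than fell. Of 13079 genes tested, 1 probe a gene, 239 changed at a Benjamini-Hochberg adjusted p under 0.05 with limma, which is 1.83%. Of these, 37 rose (0.283%) and 202 fell (1.54%). At an unadjusted p under 0.05, the threshold of the study's methods, 924 genes were higher (7.06%) and 1140 lower (8.72%). The median change over all genes was 0.01. The changes were modest on this scale, which the offset compresses: the median size of the called genes was 0.40, and 70 of them exceeded 0.5. Counted by probe, 349 of 21526 passed the adjusted threshold (1.62%), and the ages did not overlap for 1653 of 21398 probes measured on all 8 arrays (7.73%). The lower genes outnumber the higher ones under each scaling when called by adjusted p, but among probes at an unadjusted p under 0.05 the higher ones made up 45.8% in the main scaling, 59.9% with the scanner software's processed signals and 8.18% with median centring in place of the loess curve.

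**Figure D1:**
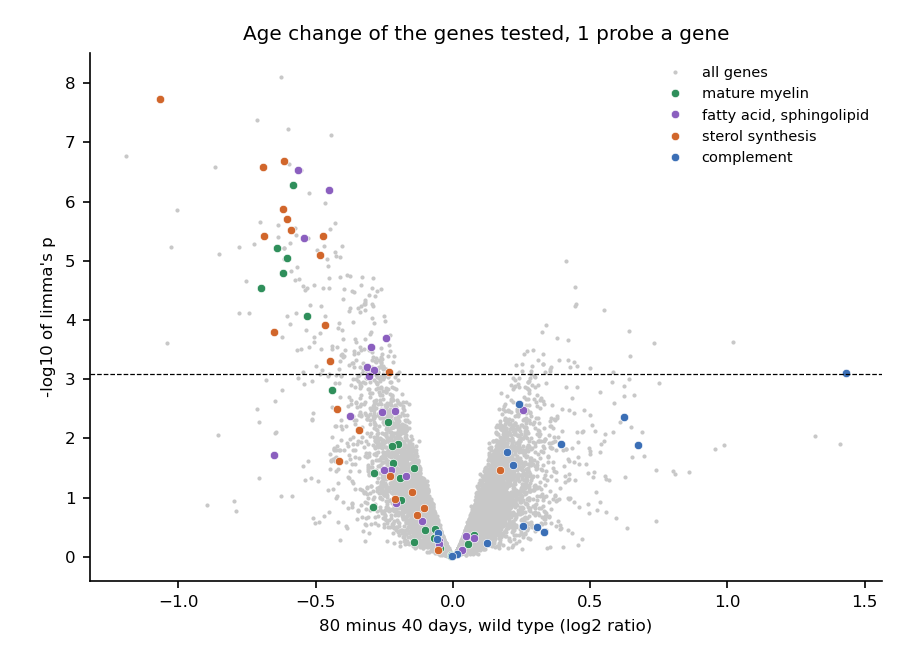
Change of each tested gene in wild-type cord, 80 minus 40 days, as a log2 ratio (horizontal) against -log10 of limma's p (vertical), 1 probe a gene. The dashed line marks the largest p with an adjusted p under 0.05; 13 sterol genes (orange), 7 fatty acid and sphingolipid genes (purple) and 6 myelin genes (green) lie above it on the left, and 1 complement gene (blue) on the right.

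The largest group of changes was in sterol synthesis. All 23 genes of the list were tested: 22 had a lower mean at 80 days, 13 fell at an adjusted p under 0.05, where 1.54% of all genes fell, and none rose. The median change of the list was -0.45, against 0.01 over all genes. At an unadjusted p under 0.05, 17 were lower and 1 was higher.

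Hmgcs1, the synthase that makes HMG-CoA, had values of 2.80, 2.72, 2.77 and 2.75 on the 4 arrays of 40 days. At 80 days they were 1.64, 1.75, 1.36 and 2.01. Every array of 80 days was below every array of 40 days, and the 40-day arrays were tightly grouped. The change was -1.07 ± 0.10 (SE, n = 4 per age), 2.1-fold lower, with an adjusted p of 9.9e-05 by limma and an exact permutation p of 0.0286, the smallest that 4 against 4 arrays can give. A second Hmgcs1 probe, of lower intensity, changed by -0.60 (adjusted p = 0.00666).

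**Figure D2:**
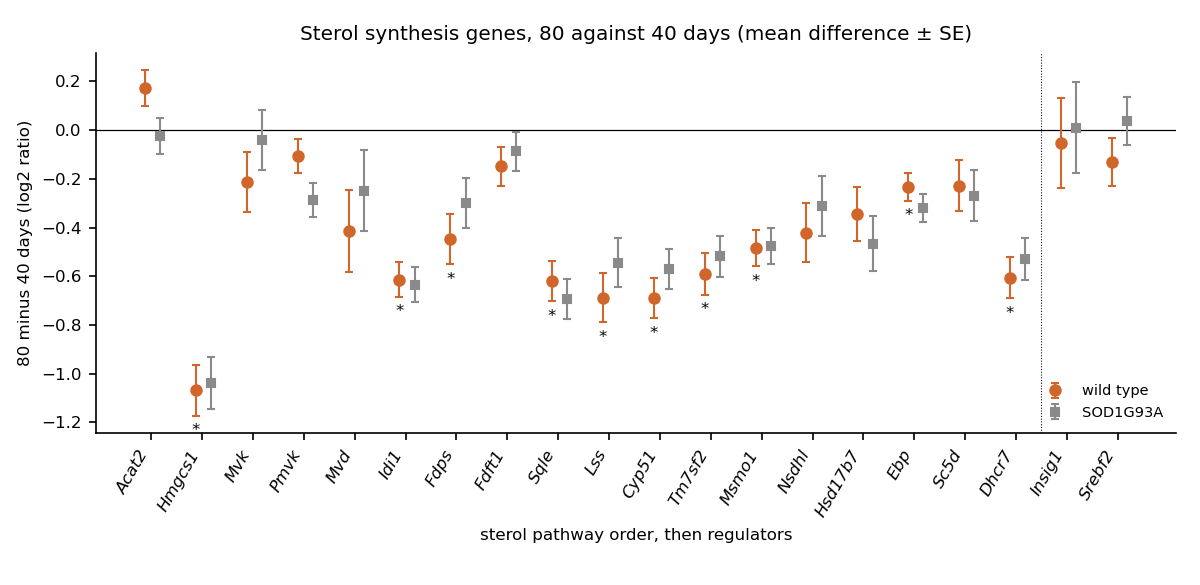
Change between 80 and 40 days (log2 ratio, mean difference ± SE, 4 arrays per age) of 18 sterol synthesis enzymes in pathway order, followed by the regulators Insig1 and Srebf2, in wild-type (circles) and SOD1G93A cord (squares). Asterisks mark an adjusted p under 0.05 in wild type; Hmgcs1 lies lowest, at -1.07, and Acat2 is the 1 enzyme above 0 in wild type.

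The change was not even along the pathway. Acat2, which joins acetyl-CoA units at its start, differed by 0.17 ± 0.07 (adjusted p = 0.278). After Hmgcs1, the mevalonate kinases Mvk and Pmvk differed by -0.21 and -0.10, and the decarboxylase Mvd by -0.42 (adjusted p = 0.244); none of these passed. Idi1, the isomerase of isopentenyl diphosphate, fell by 0.61, and Fdps, which makes farnesyl diphosphate, by 0.45, while Fdft1, the squalene synthase, differed by -0.15 ± 0.08. The second probes of Idi1 and Fdps did not pass, at -0.47 (adjusted p = 0.088) and -0.17 (adjusted p = 0.139). The array's annotation places the Idi1 probe on chromosome 2, and the gene lies on chromosome 13, so the transcript it measures is uncertain.

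From squalene on, most steps fell. Sqle, the squalene epoxidase and a second control point, read 2.06, 2.08, 2.08 and 1.98 at 40 days. Its values at 80 days were 1.36, 1.55, 1.20 and 1.62. The ages did not overlap, and Sqle fell by 0.62 (adjusted p = 0.00123). Lss, which closes the ring to lanosterol, and Cyp51, which removes its first methyl group, both fell by 0.69. All 3 Cyp51 probes were called, but 1 of 3 for Lss, whose others gave -0.47 and -0.43 (adjusted p = 0.0926 and 0.232). Tm7sf2 fell by 0.59 and Msmo1 by 0.48, both enzymes of the steps after Cyp51. Nsdhl and Hsd17b7 differed by -0.42 and -0.34 without passing (adjusted p = 0.103 and 0.148). Of the last steps, Ebp fell by 0.23 and Dhcr7 by 0.61, with -0.42 on a second Dhcr7 probe (adjusted p = 0.0664). Sc5d, the desaturase before Dhcr7, was called on 1 of 2 probes: the brighter differed by -0.23 (adjusted p = 0.305), the other by -0.80 (adjusted p = 0.00305).

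The regulators gave no call. Srebf2, which encodes SREBP2, differed by -0.13 ± 0.10, and Insig1, which retains it in the endoplasmic reticulum, by -0.05 ± 0.19, both with overlapping ages. The level of the whole list on an array, taken as the median over its genes of the difference from each gene's own 8-array mean, was 0.23, 0.18, 0.17 and 0.25 at 40 days. At 80 days it was -0.12, -0.18, -0.47 and -0.11. The lowest was that of replicate 3, the array with the highest microglial list (0.40, against -0.14 to 0.05 on the other 7). Without it 11 sterol genes fell and the list's median was -0.35.

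Peripheral nerve is also rich in sterol enzymes, so its markers were set beside these values. The 12 tested peripheral myelin and Schwann cell genes, none of them called, stood at 0.23, 0.64, 0.41 and -0.78 at 40 days and at 0.30, -0.37, -0.35 and -0.07 at 80 days, and Prx, which defines Schwann cells, was above background on 7 arrays. The other 3 arrays of 40 days were thus high in peripheral myelin and 3 of the 4 of 80 days low, while replicate 4 at 40 days was the lowest of the 8 in peripheral myelin and the highest in sterol genes. Without that array 11 sterol genes fell. The part of peripheral nerve in the sterol result was not tested. With each of the 8 arrays left out in turn, between 10 and 12 sterol genes were called; Ebp lost its call without any 1 array (adjusted p from 0.0608 to 0.110) and Fdps without replicates 1, 3 or 4 of 40 days or 2 or 3 of 80 days (0.0778 to 0.109).

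Sequences near the start sites of these genes are shown because their transcripts moved together. SREBP2 binds sterol regulatory elements and is known to act beside NF-Y, which binds CCAAT boxes. Promoter windows of RefSeq (GRCm38.p6, 250 bases before to 50 after the start) were given for 17 of the 23 genes. In the 250 bases before the start, a CCAAT box on either strand was found in 16 of the 17, against 37.5% of the 27025 genes of the table. It was present in all 8 windows of genes that fell and in 8 of the 9 others, so it does not separate them. The classical sterol regulatory element, searched as TCACNCCAC on both strands over the 300 bases, was found in Hmgcs1 alone of the 17 and in 1.44% of all genes. In the lines that follow, capitals mark the element or the box (ATTGG is CCAAT on the other strand), written 5′ to 3′ along the gene's strand.
Hmgcs1, chr13:119690189-119690247, plus strand, element 137 bases before the start: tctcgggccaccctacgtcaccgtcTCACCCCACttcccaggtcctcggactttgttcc
Hmgcs1, chr13:119690278-119690337, plus strand, box 45 bases before the start: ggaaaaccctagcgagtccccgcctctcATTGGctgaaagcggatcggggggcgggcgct
Idi1, chr13:8885533-8885592, plus strand, box 45 bases before the start: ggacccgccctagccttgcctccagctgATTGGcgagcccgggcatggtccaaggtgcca
Lss, chr10:76531515-76531574, plus strand, box 62 bases before the start: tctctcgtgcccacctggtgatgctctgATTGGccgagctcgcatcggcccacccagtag
Msmo1, chr8:64733602-64733661, minus strand, box 55 bases before the start: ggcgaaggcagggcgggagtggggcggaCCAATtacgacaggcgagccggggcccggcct
Tm7sf2, chr19:6067866-6067925, minus strand, box 47 bases before the start: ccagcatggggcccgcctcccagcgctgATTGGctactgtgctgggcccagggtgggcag

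Fatty acid and sphingolipid synthesis supplies the very long chain galactolipids of myelin. Of 23 genes of it tested, 7 fell at an adjusted p under 0.05, none rose, and the median change was -0.24. At an unadjusted p under 0.05, 15 were lower and 1 was higher, where 8.72% of all genes were lower and 7.06% higher. Elovl1, the elongase of saturated very long chains, had values of -0.03, -0.09, -0.09 and -0.06 at 40 days. At 80 days they were -0.58, -0.75, -0.51 and -0.69. The ages stood clearly apart, and the change was -0.57 ± 0.07 (adjusted p = 0.000391). Cers2, the ceramide synthase that uses those chains, fell by 0.45, and Elovl6, which extends palmitate, by 0.54. Sptlc2 and Kdsr, the first enzymes of sphingolipid synthesis, fell by 0.24 and 0.30 on their brightest probes. A second Sptlc2 probe was called at -0.34 and another gave -0.16 (adjusted p = 0.149), while the others of Kdsr gave 0.00 and -0.08 (adjusted p = 0.982 and 0.634). Acly and Fasn, which make acetyl-CoA and palmitate, fell by 0.31 and 0.29, with -0.19 on a second Fasn probe (adjusted p = 0.239).

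A higher mean at 80 days was seen for 4 of the 23 genes. The 1 of them at an unadjusted p under 0.05 was Srebf1, which encodes the SREBP of fatty acid synthesis. It differed by 0.26 ± 0.07 (limma's unadjusted p = 0.00330, adjusted p = 0.103), and its ages did not overlap. Elovl1, Cers2 and Elovl6 kept their call without any 1 array. Leaving out a single array took the call from Sptlc2 (without replicates 1 or 2 of 40 days or 1 or 3 of 80 days, adjusted p of 0.0527 to 0.0714), Kdsr (1, 2 or 3 of 40 days or 1 or 3 of 80 days, 0.0639 to 0.0939), Acly (any of 40 days or 1 or 3 of 80 days, 0.0791 to 0.132) and Fasn (any of the 8, 0.0538 to 0.105), so that 3 to 7 genes of the list passed. Without resetting bright local backgrounds 2 did.

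Among the 25 mature myelin genes, 23 had a lower mean at 80 days, 6 fell and none rose, with a median change of -0.20. At an unadjusted p under 0.05, 14 were lower (56%, where 8.72% of all genes were) and none was higher. Gal3st1, which adds the sulphate of sulfatide, read 2.54, 2.44, 2.48 and 2.76 at 40 days. At 80 days it read 1.90, 1.90, 1.74 and 2.13. The ages did not overlap, and Gal3st1 fell by 0.64 (adjusted p = 0.00261). Ugt8a, which makes galactocerebroside, fell by 0.62 and on a second probe by 0.84, and Fa2h, which hydroxylates its fatty acid, by 0.53. With the scanner software's processed signals Fa2h gave -0.00 (adjusted p = 0.994) and the second Ugt8a probe 0.0055, and without resetting bright local backgrounds 1 gene of the list passed.

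The other 3 were membrane proteins. Mal, a raft protein of myelin, fell on both probes. The brighter (chr2:127374590-127374649 on mm7) read 3.23, 3.15, 3.16 and 3.37 at 40 days and 2.49, 2.67, 2.61 and 2.81 at 80 days, a change of -0.58 (adjusted p = 0.000601), and the other changed by -0.92 (adjusted p = 8.38e-05), which no other probe undercut. Cldn11, the claudin of myelin's tight junctions, fell by 0.60. Mog, a surface protein of the outermost lamella, changed by -0.70 (adjusted p = 0.00677), but its second probe differed by -0.17 (adjusted p = 0.482), and with the scanner software's processed signals the first gave 0.29 (adjusted p = 0.205). Fa2h lost its call without replicate 1 of 40 days or of 80 days (adjusted p = 0.0521 and 0.0532); the other 5 kept theirs without any 1 array.

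Other well-known myelin genes gave no call. Mbp differed by 0.08 ± 0.10 and Mag by -0.14 ± 0.24, and both overlapped between the ages. The myelin list stood at 0.17, 0.05, 0.04 and 0.22 on the 40-day arrays and at -0.14, -0.10, -0.19 and -0.00 on the 80-day arrays, highest on replicate 4 of 40 days, the array lowest in peripheral myelin.

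Genes of oligodendrocyte precursors and newly formed oligodendrocytes were lower in smaller number. Of 21 tested, 3 fell and none rose, and the median change was -0.20. At an unadjusted p under 0.05, 10 were lower (47.6%, where 8.72% of all genes were). Enpp6, a phosphodiesterase by which newly formed oligodendrocytes are recognised, read 1.92, 1.57, 1.84 and 2.01 at 40 days. At 80 days it read 0.94, 1.16, 0.91 and 1.22. No value of 80 days reached any of 40 days, and Enpp6 fell by 0.78 (adjusted p = 0.00261). A second Enpp6 probe gave -0.29 (adjusted p = 0.265). Cspg4, the NG2 proteoglycan of precursors and pericytes, fell by 0.30 (adjusted p = 0.0468; -0.20 and 0.081 on a second probe) and Fyn, a kinase of differentiating oligodendrocytes, by 0.27 (adjusted p = 0.0483). Gpr17, a receptor of committed precursors, differed by -0.27 (adjusted p = 0.0629) and Pdgfra, the growth factor receptor of precursors, by -0.17 (adjusted p = 0.192). Both borderline calls were lost with single arrays left out: Fyn without any of the 8 (adjusted p of 0.0535 to 0.122) and Cspg4 without any but replicate 4 of 80 days (0.0583 to 0.120). Over all alternatives 0 to 3 genes of the list passed, 0 without resetting bright local backgrounds.

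**Figure D3:**
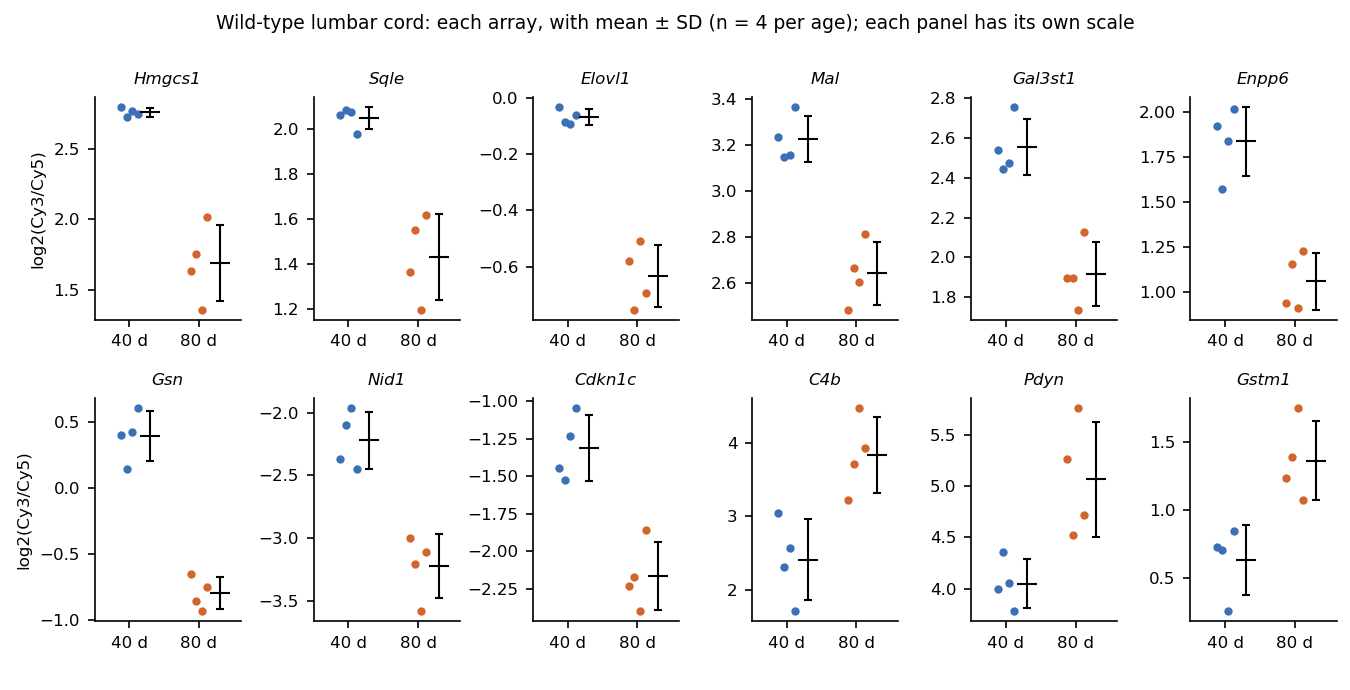
Log2 Cy3 to Cy5 ratio of 12 genes on each wild-type array at 40 (blue) and 80 days (orange), with mean ± SD (black, n = 4 per age); each panel has its own vertical scale. In the panels from Hmgcs1 to Cdkn1c every 80-day array lies below every 40-day array, and in those of C4b, Pdyn and Gstm1 every one lies above.

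The largest fall of a named gene was that of Gsn, gelsolin, an actin-severing protein abundant in oligodendrocytes. Its probe (chr2:35315078-35315137 on mm7) read 0.40, 0.14, 0.42 and 0.60 at 40 days and -0.65, -0.86, -0.93 and -0.75 at 80 days. The 2 sets lay far apart, and Gsn fell by 1.19 (2.28-fold, adjusted p = 0.000391). Tspan2, a tetraspanin of oligodendrocytes, fell by 0.85 and Pdlim2, a PDZ-LIM adaptor, by 0.87. Cdkn1c, the imprinted inhibitor of cyclin-dependent kinases p57, fell by 0.85 (adjusted p = 0.00296), the only 1 of 20 growth and imprinted genes called. Nid1, nidogen of basement membranes, fell by 1.01 (adjusted p = 0.00123), the 1 called gene of 32 in the matrix list. Its mean went from -2.22 ± 0.23 to -3.22 ± 0.25 (SD, n = 4) without overlap. Of 23 collagens none was called and 2 were lower at an unadjusted p under 0.05 (8.7%, where 8.72% of all genes were). Gsn, Tspan2, Pdlim2, Cdkn1c and Nid1 each kept their call without any 1 array.

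Plac9a and Tmem254a, whose probes lie close together on chromosome 14, fell by 1.04 and 1.03 (adjusted p = 0.0274 and 0.00261). Plac9a read -1.87, -1.73, -1.66 and -1.93 at 40 days and -2.42, -2.83, -2.96 and -3.15 at 80 days. Both belong to near-identical copies that a probe may not separate, so which copy is measured is uncertain. Plac9a lost its call without replicates 1, 2 or 3 of 40 days or 2, 3 or 4 of 80 days (adjusted p of 0.0517 to 0.0725).

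Genes of the vessel wall were lower in part. Of 14 pericyte and smooth muscle genes, 2 fell, Myh11, the smooth muscle myosin, by 0.40 (adjusted p = 0.0357) and Cspg4. Lower at an unadjusted p under 0.05 were 6 (42.9%, where 8.72% of all genes were), and the median was -0.14. Rgs5, a pericyte regulator of G proteins, differed by -0.68 ± 0.17 on its brighter probe (adjusted p = 0.0557) and by -0.42 on the other, which passed (adjusted p = 0.0422), and Pdgfrb, the receptor that recruits pericytes, by -0.30 (adjusted p = 0.153). Of 23 endothelial genes none was called. At an unadjusted p under 0.05, 3 were lower and 1 higher, together 17.4%, near the 15.8% of all genes. Kdr, the main VEGF receptor, differed by -0.33 (adjusted p = 0.0575). The calls of the vessel wall depended on single arrays: Myh11 lost its own without replicates 2 or 3 of 40 days or 1, 3 or 4 of 80 days (adjusted p of 0.0644 to 0.103), and 0 to 3 genes of the list passed.

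The largest rise was that of C4b, the complement component that is cleaved in the classical pathway. It read 3.04, 2.31, 2.57 and 1.71 at 40 days and 3.23, 3.72, 4.48 and 3.93 at 80 days. The ages did not overlap, although the highest value of 40 days and the lowest of 80 days were close. The change was 1.43 ± 0.35 (2.7-fold, adjusted p = 0.0485; the probe lies at chr17:32815561-32815620 on mm7), and signal of C4b cannot be separated with certainty from its near-identical copy C4a. The call was lost without replicates 2, 3 or 4 of either age (adjusted p of 0.0761 to 0.131).

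C4b was the 1 called gene of 15 complement genes. At an unadjusted p under 0.05, 7 of the 15 were higher (46.7%, where 7.06% of all genes were) and none lower. The median change of the list was 0.24. C1qb and C1qc, chains of the recognition molecule C1q, differed by 0.62 ± 0.19 (adjusted p = 0.116) and 0.67 ± 0.24 (adjusted p = 0.191), both without overlap. Cfb and C2, which form convertases, differed by 0.24 and 0.40, C1ra, a protease of C1, by 0.20, and Clu, clusterin, a complement inhibitor made by astrocytes, by 0.22. Cfb and C1ra were each well above background on 2 arrays of 40 days and 4 of 80 days. Both thus entered the tests, and the count of 7, through the 80-day arrays alone. The complement list was highest on replicate 3 of 80 days (0.31, against -0.23 to 0.07 on the other 7), the array highest in the microglial list; without it the median of the complement list was 0.15. Of 24 microglial genes none was called. At an unadjusted p under 0.05, 2 were higher (8.33%, near the 7.06% of all genes), the same C1q chains, which both lists hold. Of 22 astrocyte genes none was called and 5 were higher at that threshold (22.7%, where 7.06% of all genes were). The list was split, with a higher mean at 80 days for 16 genes and a lower one for 6. All 3 probes of the marker Aqp4 were lower (-0.35 to -0.07), none of them called. Glul, glutamine synthetase, differed by 0.33 ± 0.12 on its brighter probe but by -0.63 on the other (adjusted p = 0.208 and 0.269), and Aldh1l1 by 0.23 ± 0.09.

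**Figure D4:**
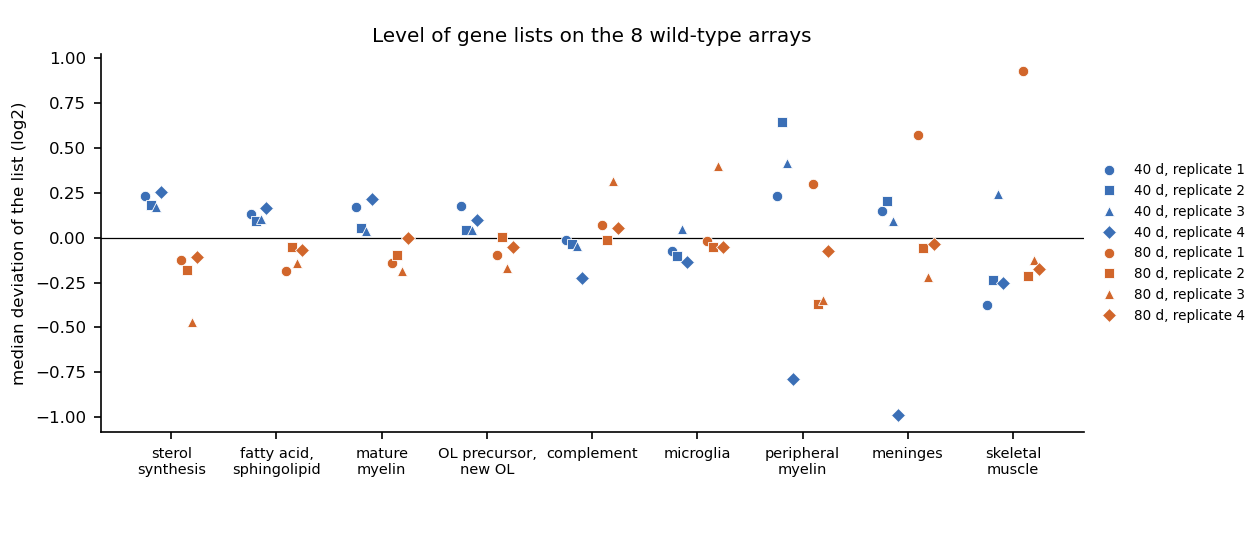
Level of 9 gene lists on each wild-type array, as the median over the list of each gene's difference from its own 8-array mean (log2); colour gives the age and symbol the replicate (OL, oligodendrocyte). The sterol list separates the ages, from 0.17 to 0.25 against -0.47 to -0.11, while peripheral myelin, meningeal and skeletal muscle lists vary more within an age than between the ages.

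Major histocompatibility genes gave no call. Of 13 class I and antigen presentation genes 2 were higher at an unadjusted p under 0.05 (15.4%, where 7.06% of all genes were). These were H2-M3 at 0.30 (adjusted p = 0.088) and Psmb8 at 0.35 (adjusted p = 0.22). Of only 5 class II genes 2 were higher, H2-Eb1 at 0.31 and H2-Ab1 at 0.46. H2-D1, a classical class I chain, read -0.21 on replicate 4 of 40 days against -1.66 to -1.49 on the other 3, and at 80 days -0.40, -1.19, -0.52 and -1.37. H2-K1 had a like spread, at -1.63, -1.49, -1.30 and -0.74 and then -0.80, -1.22, -0.59 and -1.21. The ages overlapped for both genes, and neither difference (0.38 ± 0.32 and 0.34 ± 0.24) passed. Class I genes have near-identical copies, so the gene behind each probe is uncertain.

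Pdyn, which encodes prodynorphin, the precursor of opioid peptides of dorsal horn neurons, rose by 1.02 (2.03-fold, adjusted p = 0.0265). It read 3.99, 4.36, 4.05 and 3.78 at 40 days and 5.27, 4.52, 5.76 and 4.71 at 80 days, the lowest older array lying just above the highest younger one. Gstm1, a glutathione S-transferase of astrocytes and liver, rose by 0.73 (adjusted p = 0.0273), from between 0.25 and 0.84 to between 1.07 and 1.75, and its second probe differed by 0.59 (adjusted p = 0.053). Pdyn lost its call without replicates 1, 3 or 4 of 40 days or 1 or 3 of 80 days (adjusted p of 0.0557 to 0.0842), and Gstm1 without 1, 2 or 3 of 40 days or 2 or 3 of 80 days (0.0522 to 0.077).

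The other genes with the largest higher values did not pass. Wtap, a subunit of the RNA methyltransferase complex, read -2.26, -0.91, -0.89 and -2.35 at 40 days and -0.34, -0.15, -0.29 and -0.37 at 80 days, so that replicates 1 and 4 of 40 days made most of its difference of 1.32 (adjusted p = 0.164); its other probe gave -0.29 (adjusted p = 0.0603). Phyhd1 and Neat1, a nuclear long non-coding RNA, differed by 0.75 and 0.65 and were highest on replicate 3 of 80 days. Ankrd12 differed by 0.72 on 1 of its 6 probes, the others lying between -0.21 and 0.10, Nbl1, a BMP antagonist, by 0.66, Mir124-2hg, the host transcript of a neuronal microRNA, by 0.65 on 1 probe and -0.08 on the other, and Vwf, von Willebrand factor, by 0.65, with adjusted p between 0.075 (Nbl1) and 0.171 (Vwf); the ages did not overlap for these probes of largest change. Ch25h, which makes 25-hydroxycholesterol, was not well above background on any array of 40 days and was on all 4 of 80 days. It thus entered the tests through the 80-day arrays alone. Ch25h differed by 0.80 (adjusted p = 0.28), with 2.00 on replicate 3 of 80 days and 0.15 to 0.22 on the other 3.

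Neuronal lists differed from each other in their counts. Map2, a dendritic microtubule protein, rose by 0.25 (adjusted p = 0.0475; 0.31 and 0.224 on a second probe), the 1 called of 18 pan-neuronal genes, of which 3 were higher at an unadjusted p under 0.05. None of 15 ionotropic glutamate receptor subunits was called and 5 were higher, which is 33.3% where 7.06% of all genes were higher, among them Grik1 at 0.42 (adjusted p = 0.103) and Gria4 at 0.19 (adjusted p = 0.151), whose other probes gave 0.07 and -0.04. No gene was called among 27 of GABA and glycine signalling, 25 potassium channels, 20 sodium and calcium channels, 9 neuronal intermediate filament genes or 17 cholinergic and motor neuron genes; at an unadjusted p under 0.05 these lists had 3, 0, 2, 1 and 2 genes, where 15.8% of all genes were. Of 30 synaptic vesicle genes Sypl, a synaptophysin relative that other tissues also express, fell by 0.36 (adjusted p = 0.0414), with a second probe called at -0.47 and another at -0.17 (adjusted p = 0.714), while 6 were higher and 2 lower at an unadjusted p under 0.05, together 26.7%. Of 27 genes of the developing cytoskeleton Marcksl1, a substrate of protein kinase C in growing processes, fell by 0.61 (adjusted p = 0.00326). Marcksl1 kept its call without any 1 array; Map2 lost it without replicates 1, 2 or 3 of 40 days or 1, 3 or 4 of 80 days (adjusted p of 0.0944 to 0.108), and Sypl without any of 40 days or 1 or 3 of 80 days (0.0534 to 0.122).

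Cytosolic ribosomal protein genes were shifted slightly upwards. Of 78 tested, 72 had a higher mean at 80 days, 1 rose, and the median was 0.12. At an unadjusted p under 0.05, 16 were higher (20.5%, where 7.06% of all genes were) and none lower. Rplp1, a protein of the ribosomal stalk, rose by 0.38 (adjusted p = 0.0388), from between -1.71 and -1.24 to between -1.20 and -0.89; Rpl27a, Rpl37 and Rps15 differed by 0.30, 0.27 and 0.26. The list stood at -0.13, 0.02, 0.05 and -0.22 at 40 days and 0.01, 0.01, 0.18 and 0.07 at 80 days, so the ages overlapped. With median centring its median change was 0.00. The 77 mitochondrial ribosomal proteins and 78 subunits of oxidative phosphorylation had medians of 0.02 and 0.04 and no call. Rplp1 lost its call without replicates 1, 3 or 4 of 40 days or 2, 3 or 4 of 80 days (adjusted p of 0.0517 to 0.108).

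Among 17 ependymal and cilium genes 6 were higher at an unadjusted p under 0.05 (35.3%, where 7.06% of all genes were) and none lower. The 1 that rose was Cfap126, a protein of motile cilia, by 0.42 (adjusted p = 0.0252), while Tekt1, of the ciliary axoneme, differed by 0.29. Of 27 Hox genes 1 rose, Hoxb7 by 0.36 (adjusted p = 0.0439). At an unadjusted p under 0.05, 5 were higher and 1, Hoxd8, was lower at -0.27, together 22.2%, where 15.8% of all genes passed. Cfap126 lost its call without replicates 1, 3 or 4 of 40 days or 1 or 2 of 80 days (adjusted p of 0.0534 to 0.0732) and Hoxb7 without any of the 8 (0.0515 to 0.134). Of 30 cell cycle genes none was called and Mcm5 alone was lower at an unadjusted p under 0.05. None of 17 clock genes, 20 immediate early genes, 14 glucocorticoid-responsive genes or 21 interferon response genes was called, and these lists had 1, 1, 1 and 0 genes at an unadjusted p under 0.05. Of 12 thyroid hormone-responsive genes 1 rose, Nrgn, neurogranin, a postsynaptic calmodulin-binding protein, by 0.45 (adjusted p = 0.0439), and 1 fell, Hmgcs1; Nrgn lost its call without any array but replicate 2 of 80 days (adjusted p of 0.0531 to 0.112). No gene was called among 34 proteasome subunits, 24 heat shock proteins, 14 neuronal calcium-binding proteins, 16 perineuronal matrix genes, 15 meningeal, 12 skeletal muscle, 7 erythrocyte, 5 sensory neuron or 9 housekeeping genes, with medians of 0.03, 0.02, 0.19, -0.01, 0.09, 0.22, 0.10, 0.10 and 0.04, nor among the small lists for lymphocytes and the organs of the reference.

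The same interval was then read in the SOD1G93A cord, whose 8 arrays are other animals on the same 4 slides. Of the 239 genes called in wild type, 223 had the same sign in SOD1G93A and 184 the same sign with an unadjusted p under 0.05, where 18.4% of all genes had such a p in either direction. Of the 202 genes that fell, 162 did so, with medians of -0.40 in wild type and -0.31 in SOD1G93A. Of the 37 that rose, 22 did, with medians of 0.38 and 0.19. Since the genes were chosen on the wild-type change, its larger size says nothing about the genotypes. Both changes also share 1 estimate of spread for each probe, so genes called in wild type are favoured for a low p in SOD1G93A. The 18.4% of all genes is therefore not a like baseline for them. Hmgcs1 changed by -1.04 in SOD1G93A against -1.07 in wild type, Gsn by -1.13 against -1.19, Enpp6 by -0.92 against -0.78 and C4b by 1.39 against 1.43.

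**Figure D5:**
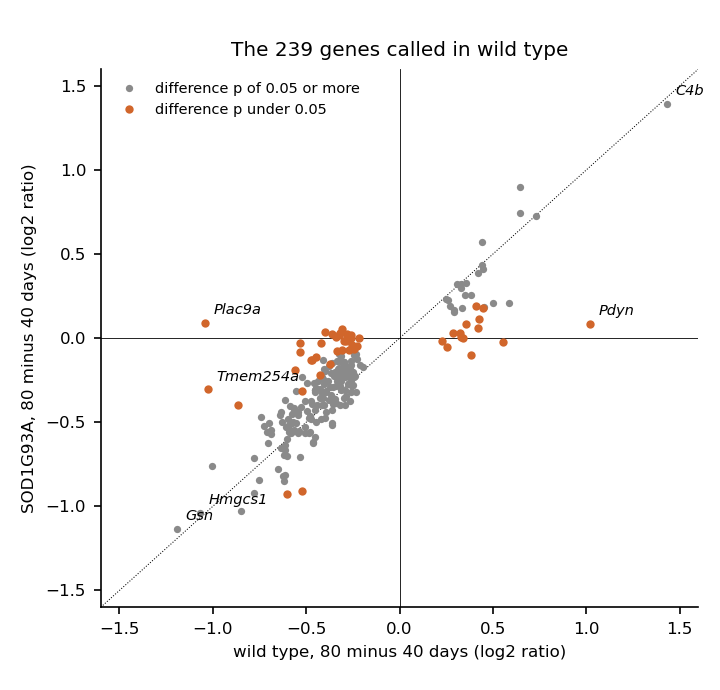
Change between 80 and 40 days of the 239 genes called in wild type, in wild type (horizontal) and in SOD1G93A cord (vertical), both as log2 ratios; the dotted line marks equal change. Orange points, 49 in number, had an unadjusted p under 0.05 for the difference; Plac9a and Pdyn lie near 0 on the vertical axis, at 0.09 each.

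The difference of the age changes was tested in the same limma fit. It had an unadjusted p under 0.05 for 1450 of 21526 probes (6.74%) and an adjusted p under 0.05 for 0, the smallest being 0.493. By gene it was 5.64%. The genes named for it are therefore descriptions. Ptprz1, a receptor phosphatase of glia, differed in wild type by 0.96 and in SOD1G93A by -0.55; it read 0.33, 0.71, 1.48 and 0.96 at 40 days and 1.26, 2.20, 1.36 and 2.48 at 80 days, with overlap. These are of the brightest of its 4 probes; the others changed by -0.05, 0.28 and 0.00 in wild type, and their differences from SOD1G93A were -0.07, 0.21 and -0.10. Pdyn differed between the genotypes' changes by 0.93 (unadjusted p = 0.00767), Syt10, a synaptotagmin of neurons, by 0.99 (0.000705; 0.11 on a second probe) and Plac9a by -1.13 (0.00238). The 6 genes of the largest positive difference, which besides Ptprz1, Syt10, Pdyn and Mir124-2hg were Zfp106 and Zfp605, lay between 0.87 and 1.51, and the 6 negative ones, Plac9a, Trappc3, Zyg11b, Ctnnd2, Tmem254a and Slc25a30, between -1.13 and -0.72. Zfp106, Mir124-2hg, Zyg11b, Ctnnd2 and Slc25a30 stand here by their probe of largest difference, and on their other probes it lay between -0.30 and 0.28; the 2 Trappc3 probes gave -0.72 and -0.82.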

How the data were processed

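Lumbar cord RNA of 16 samples was hybridised by the authors to 2-colour Agilent whole mouse genome arrays, cord in Cy3 and a common pool of neonatal organs in Cy5, without dye swap. The deposited values were spot intensities from Agilent Feature Extraction 9.5.3.1 (per the labels); probe positions were those of the files, on mm7. The deposited series matrix was not used, since its scaling does not allow ages to be compared. From the median intensities, background was corrected with normexp (offset 50) in limma 3.58.1 (R 4.3.3), after local backgrounds of spots more than 20 units below them were reset to the array's median background. Ratios were normalised by loess within arrays, with control spots at weight 0; outlier spots were left out and spots of a probe averaged. A probe entered the tests if its Cy3 signal was flagged well above background on 3 or more of the 4 arrays of either wild-type age and each of these ages had 2 or more measured arrays. A linear model of the 4 groups over 16 arrays with empirical Bayes moderation (limma) gave the age change, that of SOD1G93A and their difference, with Benjamini-Hochberg adjustment over 21526 probes. Single genes were also tested with an exact two-sided permutation test.

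Of 41174 probes, 32719 were named through RefSeq, 22951 of them by accession, 6659 by symbol and 3109 by older name. A gene stands for its brightest tested probe, unless another is named. The members and the 49 gene lists were chosen with earlier results of these data known. Named genes were the 12 higher and 12 lower with the largest change at an unadjusted p under 0.05 without overlap of the ages, up to 4 members of each described list with the smallest p plus a fixed panel, and the 6 genes of each sign with the largest difference from SOD1G93A at an unadjusted p under 0.05. Other genes were named after their values were seen, to complete a pathway or where a count was small. Some genes counted in the lists are not reported here by name. Promoter sequences and start sites were from RefSeq (GRCm38.p6); both motifs were chosen with the results known.

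Samples were grouped by the labels' genotype and age. Deviations of the 40-day and 80-day arrays with the same replicate number, which share a slide, correlated between -0.05 and 0.02. No pairing was thus seen over the probes as a whole, which cannot exclude a slide effect on single probes. The number of arrays, 4 per age, limits the precision, and p-values measure the spread between these arrays. The fit was tested on simulated data, where for the wild-type age comparison, over 21342 probes, 76% of probes changed by 0.5 and 98% of those changed by 1 were recovered at an adjusted p under 0.05. In the same run 7 unchanged probes passed. The noise was drawn for each probe independently, without the deviations that genes share on a real array, so recovery in these data may be lower. Alternatives covered background, normalisation, filters, outlier spots, the samples fitted, weights, variance trend, the replicate block and each wild-type array left out.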

Additional observations from a re-analysis of the deposited data

Results flagged for a closer look

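The change with age differed between wild type and SOD1G93A at an unadjusted p under 0.05 for 21 of the described genes, in limma's test of the difference; none passed Benjamini-Hochberg adjustment. The difference, wild type minus SOD1G93A, was positive for Ptprz1 (1.51), Zfp106 (1.05), Zfp605 (1.04), Syt10 (0.99), Pdyn (0.93), Mir124-2hg (0.87), Syt1 (0.43), Cldn11 (0.32), Map2 (0.31), Gria4 (0.30) and Hoxb7 (0.27). It was negative for Plac9a (-1.13), Trappc3 (-0.82), Zyg11b (-0.82), Ctnnd2 (-0.78), Tmem254a (-0.73), Slc25a30 (-0.72), Pdlim2 (-0.47), Myh11 (-0.43), Cspg4 (-0.28) and Fasn (-0.27). For Cldn11 the positive sign stands for a smaller fall in wild type than in SOD1G93A, where it changed by -0.93.

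Single arrays stood far from the other 3 of their age for 14 values. Dixon's criterion flags about 1 group in 20 by chance, and 200 groups were examined. Replicate 3 of 80 days gave 6 of them: Clu at 2.87, Ch25h at 2.00 and Phyhd1 at 1.95 above the other arrays of their age, and the second Sc5d probe at 1.52, Pdlim2 at 0.79 and Pdgfra at -0.59 below them. This array also had the highest microglial list (0.40) and the lowest sterol list (-0.47).

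Replicate 4 of 40 days stood apart for Fasn at 1.73, Kdsr at 0.31, Pdgfra at -0.49 and H2-D1 at -0.21. Replicate 1 of 80 days stood apart for Grik1 at 2.18 and Rpl37 at -0.37. Idi1 read 1.47 on replicate 1 of 40 days against 1.56 to 1.58, a gap that is small beside its change of -0.61, and the second Ugt8a probe read 3.13 on replicate 2 of 40 days against 3.48 to 3.54.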

How the results depend on the processing

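In 20 alternatives, probes at an adjusted p under 0.05, 349 in the main setting, numbered 103 without resetting bright local backgrounds, 162 with the Cy3 channel alone and 81 with the 8 wild-type arrays fitted alone, which leaves fewer residual degrees of freedom and gives no difference between genotypes and no sharing with SOD1G93A. They ranged from 177 to 325 with single arrays left out (177 without replicate 1 of 80 days, 194, 219 and 222 without replicates 1, 2 and 3 of 40 days, 220 without replicate 3 of 80 days). Probes at an unadjusted p under 0.05, 3313, numbered 5025 without a filter on dim probes and 2648 to 3488 with arrays left out. The difference between the genotypes, 1450 probes, gave 776 without the reset, 2473 without the filter and 1245 to 1773 with arrays left out, and 0 at an adjusted p under 0.05 in each setting that gives one. The 1011 probes shared with SOD1G93A were 493 with median centring and 807 to 1259 with arrays left out. The cause of these shifts was not tested. Among the wild-type arrays the reset changed only replicate 3 of 40 days, at 4 Cy3 and 3 Cy5 spots. In SOD1G93A it changed replicate 4 of 40 days (5 Cy3 and 4 Cy5 spots) and replicate 4 of 80 days (63 and 18). The median change over all probes was -0.05 with median centring and 0.05 with processed signals, against 0.02.

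With the replicate block, 3419 probes passed the unadjusted and 308 the adjusted threshold, so no count moved by over 1.5 times. The probes called were in part others: of the 349 called in the main setting, 258 were called with the block.

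Of 47 gene probes called, 45 kept their direction under all alternatives and 31 lost their call under at least 1. Directions reversed for Mog (0.29), the second Ugt8a probe (0.0055) and Ctnnd2 (0.13) with processed signals, for Ctnnd2 (0.065, and 0.026 for its difference from SOD1G93A) with median centring, for Mag with array weights (0.071) and for Insig1 without the reset (0.012). With single arrays left out, values of both signs were given by Insig1 (-0.15 to 0.077, positive without replicate 1 of 40 days or 3 of 80 days), Mag (-0.36 to 0.084, positive without replicate 4 of 40 days or 3 of 80 days), Trappc3 (-0.25 to 0.010, positive without replicate 4 of 40 days or 2 of 80 days) and Zfp605 (-0.40 to 0.20, positive without replicate 2 of 80 days). The sterol list had 8 to 13 genes called lower over all alternatives, the fatty acid and sphingolipid list 2 to 10, the myelin list 1 to 7 and the precursor list 0 to 3. Fa2h was -0.32 (adjusted p = 0.682) without the reset, -0.0025 (0.994) with processed signals, -0.22 (0.207) with median centring and -0.53 (0.107) with the wild-type arrays alone.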

Other observations

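Genes outside the lists, named after their values were seen, are given as values; rose and fell stand for limma's Benjamini-Hochberg adjusted p under 0.05 on each tested probe. Further genes of lipid and sterol handling fell: Aacs, which activates acetoacetate for lipid synthesis, by 0.63 and Npc1, which exports cholesterol from lysosomes, by 0.53. Vldlr was called on its dimmer probe only, at -0.30 (adjusted p = 0.0322) against -0.26 (adjusted p = 0.103) on the brighter. Of oligodendrocyte genes, Jam3, a junctional adhesion protein, fell by 0.59, Serinc5, a serine incorporator, by 0.57 and Erbb3, a neuregulin receptor, by 0.54. Sirt2, a deacetylase, changed by -0.24 and -0.33 on both called probes and by -0.16 on another (adjusted p = 0.299). Cpox, an enzyme of haem synthesis, fell by 0.75.

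Among genes that rose were the neuropeptides Gal, galanin, at 0.42 and Nmb, neuromedin B, at 0.27, while Npb, neuropeptide B, changed by -0.48. Gstm3, a relative of Gstm1, rose by 0.64, Il33, an alarmin of oligodendrocytes and astrocytes, by 0.64 and Sorl1, a sorting receptor of neurons, by 0.58. Snhg5, a host of small nucleolar RNAs, rose by 0.28. The probes of 2 further genes disagreed. Gas5, another such host, gave 0.44 on its brighter probe (adjusted p = 0.0104) and 0.04 on the other. Grm5, a metabotropic glutamate receptor, gave 0.49 on 1 probe (adjusted p = 0.00986) but -0.02, 0.26 and 0.02 on the others, of which the first is the brightest.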
